A study of Danio rerio with 2 samples.

Results

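Cathepsins are proteases of the lysosome, and 10 of their genes (ctsa, ctsba, ctsc, ctsd, ctsf, ctsh, ctsk, ctsla, ctsl.1 and ctsz) are described here, taken as a list of names from the 34326 genes of a zebrafish expression table. The list was drawn up with earlier results of these data known. It leaves out 9 other genes whose name starts with cts, which are described further below. All 10 were found, and all had a fold and a p-value. By catalytic type, known from the mammalian enzymes, 8 are cysteine proteases, ctsd is an aspartic protease and ctsa is a serine carboxypeptidase.

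The table compares oligodendrocytes, the glia that wrap axons of the brain and spinal cord in myelin, from wild-type and rraga mutant zebrafish of the TL (Tupfel long fin) strain. The cells were sorted at 5 days post fertilization for GFP driven by the Cldnk (claudin k) promoter, so any cell carrying that fluorescence could enter the sample, and the mutant allele is not named in the labels. Each genotype is 1 record that merges 2 independent biological replicates. rraga encodes RagA, a Rag GTPase that works with the Ragulator complex on the outside of the lysosome to report nutrient supply, and the study's title places the transcription factor TFEB downstream of Rag-Ragulator. The values are the authors' own comparison, with no value per replicate, so the spread between replicates is not given and the sequencing depth is unknown. rraga itself was listed at level 33.1 with a log2 fold of 0.44 (p = 0.477) in the authors' deposited table, and since a mutant allele may still be transcribed, that value does not check the labels.

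Cathepsins are made as inactive precursors, carried to the lysosome largely through the mannose 6-phosphate signal, and cleaved there in acid into active enzymes. Together they degrade proteins delivered by endocytosis and autophagy: endopeptidases cut inside a chain and exopeptidases trim its ends. TFEB and its relatives bind the promoters of many lysosomal genes in mammals, cathepsin genes among them, and the Rag-Ragulator complex takes part in holding TFEB in the cytoplasm when nutrients are plentiful.

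In rraga mutant cells, 9 of the 10 cathepsin genes were listed higher than in wild-type cells, with log2 folds from 1.06 to 2.63 in the authors' deposited table. The remaining gene, ctsf, had a log2 fold of -0.01. Among the 5792 genes of level 10 or more, to which all 10 belong, 62.3% were higher and 10.9% had a log2 fold of 1 or more, against 9 of 10 cathepsins on both counts. The level takes whichever genotype mean is higher, so a gene that is higher in the mutant can reach 10 through the mutant alone, and these shares describe the background and support nothing. Only ctsk and ctsa rose past the threshold, an FDR p-value of the authors under 0.05, which 0.132% of the 25757 genes with a p passed as higher. The other 8 did not pass it. The same pair passed when the adjustment ran over genes with a level of at least 1, where 0.316% of genes were called higher. It also passed over those with a level of at least 10, where 1.14% were. These adjustments reuse the same p-values over fewer genes, picked by that level, so passing again supports nothing. Neither had an FDR p-value from the authors' own column under 0.01. Before adjustment, 9 of the 10 were higher at p under 0.05, against 4.43% of the 25757 genes with a p and 5.94% of genes of level 10 or more. The median log2 fold was 1.72 over the 10 cathepsins, 0.02 over all genes with a p and 0.15 over the genes of level 10 or more. In bulk RNA of sorted cells, more transcript per cell and a different mix of cells cannot be told apart.

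The level used here is the higher of the genotype means, a normalized expression value whose unit is not named in the table. Whether it is scaled to gene length is not given, so levels order the genes on the authors' scale and do not rank transcript numbers. Each log2 fold is given with an implied standard error (SE), which is the size of the log2 fold over the normal deviate that matches the authors' p. This error assumes a normal test, and it is not known whether it carries the spread between replicates.

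**Figure D1:**
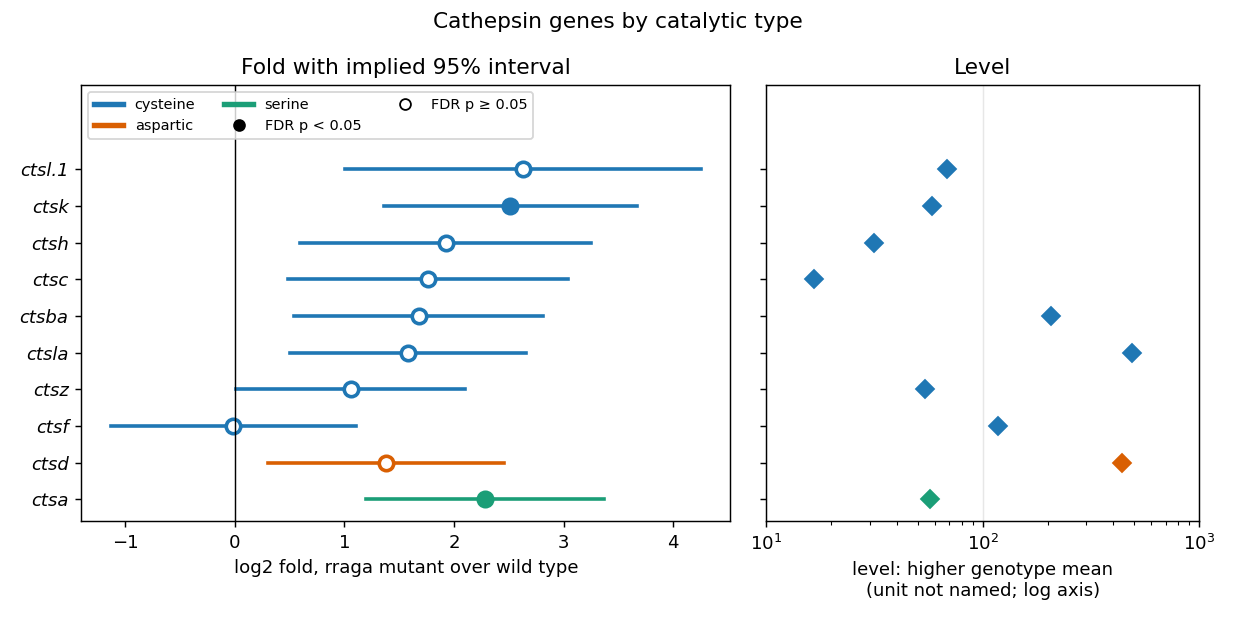
The left panel gives the log2 fold (rraga mutant over wild type) of each cathepsin gene with its implied 95% interval, coloured by catalytic type and filled where the FDR p-value of the authors fell under 0.05; the right panel gives the level on a log axis. The intervals of 9 genes lie above 0, that of ctsf runs from -1.13 to 1.104, and the levels run from 16.6 for ctsc to 492 for ctsla.

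Among the endopeptidases of the cysteine type, ctsk had the smallest p. Cathepsin K degrades collagen and is best known from osteoclasts. ctsk (ENSDARG00000040251, chromosome 16, 29558314 to 29567926, GRCz11) had a level of 58.2 and a log2 fold of 2.51 (implied SE 0.59), a 5.71-fold higher value, with p = 2.01e-05 and adjusted p = 0.0227 in the authors' deposited table. ctsl.1 (ENSDARG00000003902, chromosome 17, 27439841 to 27444267), a gene named for cathepsin L, had a level of 68.7 and the largest log2 fold of the 10 in the authors' deposited table, 2.63. Its adjusted p from the authors was 0.261. The implied SE of ctsl.1, which restates the fold and the p together, was 0.83, the largest among the cathepsins, against a median of 0.56 for the 1702 genes with a level within 2-fold of its own.

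ctsla (ENSDARG00000007836, chromosome 5, 44204638 to 44210767) encodes cathepsin L, a broad endopeptidase, and had the highest level of the 10, 492. Its log2 fold was 1.58 (implied SE 0.55), with p = 0.00410 and adjusted p = 0.405 in the authors' deposited table. The gene lies wholly within the span of fbp1a, a fructose bisphosphatase gene on the opposite strand, which had a log2 fold of 0.52 in the authors' deposited table and a level of 16.6. Whether reads were counted by strand is not given, so reads of the overlapping genes may not be separated.

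ctsf (ENSDARG00000063095, chromosome 14, 6834588 to 6858237) encodes cathepsin F, whose loss in people causes a form of neuronal ceroid lipofuscinosis. It had the fourth highest level of the 10, 118, a log2 fold of -0.01 (implied 95% interval -1.13 to 1.104) and p = 0.982 in the authors' deposited table. It shares 554 bases with trpt1 on the opposite strand, which had a level of 7.31 and a log2 fold of 1.06 by the authors' deposited table. Its precision was like that of the others, with an implied SE of 0.57, so a change of up to about 2-fold either way lies inside its interval. Of the 9 differences between ctsf and another cathepsin, 7 had an implied 95% interval above 0, taking the errors of 2 genes as independent. Against ctsk the difference was 2.53 (0.92 to 4.13) on the log2 scale, and against ctsla it was 1.59 (0.04 to 3.14). The intervals of ctsd and ctsz against ctsf included 0, at 1.39 (-0.16 to 2.94) and 1.07 (-0.46 to 2.60). Among the 36 pairs without ctsf, no interval left out 0. These 45 intervals were not adjusted for their number. ctsf was singled out because its fold was the lowest of the 10, and its 9 differences all share its value. The 7 intervals above 0 are therefore a description and no test.

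ctsba (ENSDARG00000055120, chromosome 17, 32670420 to 32679003) encodes cathepsin B, a cysteine protease that works both inside a chain and as a carboxydipeptidase. It had a level of 207 and a log2 fold of 1.68 (implied SE 0.58), with p = 0.00369 and adjusted p = 0.399 in the authors' deposited table. It shares 726 bases with cgref1 on the opposite strand, which had a level of 21.3 and a log2 fold of -0.68 in the authors' deposited table.

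The exopeptidases of the cysteine type were all higher, and none passed the authors' threshold. ctsh (ENSDARG00000041108, chromosome 18, 26437606 to 26444007) encodes an aminopeptidase and had a level of 31.3 with a log2 fold of 1.92 (implied SE 0.68, p = 0.00438) in the authors' deposited table. ctsc (ENSDARG00000101334, chromosome 15, 43682730 to 43704643) encodes dipeptidyl peptidase I, which activates the granule proteases of immune cells, and had the lowest level, 16.6, with a log2 fold of 1.76 (implied SE 0.65, p = 0.00677) in the authors' deposited table. ctsz (ENSDARG00000043081, chromosome 6, 49772719 to 49782709) encodes a carboxypeptidase and had a level of 53.9 with a log2 fold of 1.06 (implied SE 0.53, p = 0.0475), the smallest of the 9 higher values in the authors' deposited table. The adjusted p-values of ctsh, ctsc and ctsz were 0.413, 0.487 and 0.685 there.

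The aspartic and the serine enzyme sat at different levels and both were higher in the mutant. Cathepsin D is the main aspartic protease of lysosomes, and its loss causes neuronal ceroid lipofuscinosis in people. ctsd (ENSDARG00000057698, chromosome 18, 16144529 to 16157015) had a level of 441, second to ctsla, and a log2 fold of 1.38 (implied SE 0.55), with p = 0.0119 and adjusted p = 0.560 in the authors' deposited table. Cathepsin A trims carboxyl ends and also shields beta-galactosidase and neuraminidase inside the lysosome. ctsa (ENSDARG00000098114, chromosome 6, 55386994 to 55411507) rose by 2.29 on the log2 scale (implied SE 0.55) at a level of 57.0, a 4.87-fold higher value, with p = 3.66e-05 and adjusted p = 0.0331 in the authors' deposited table.

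Set side by side, the 8 cysteine genes had a median log2 fold of 1.72 and ranged from -0.01 to 2.63, and both ctsd at 1.38 and ctsa at 2.29 lay inside that range. The difference of ctsa over ctsd was 0.91 on the log2 scale, with an implied 95% interval of -0.62 to 2.43 that includes 0. With 1 aspartic and 1 serine gene, no test between types could be made. By activity, the 4 exopeptidase genes had log2 folds of 1.06 to 2.29 and the 5 endopeptidase genes -0.01 to 2.63. In summed level, the cysteine genes held 1046, ctsd 441 and ctsa 57.0 of the 1544 of all 10 cathepsins, which was 0.245% of the summed level of the table. These sums take the higher genotype mean of each gene. The levels spanned 29.6-fold, and the genes of highest level were not those of largest listed fold. ctsla and ctsd had smaller listed folds than ctsl.1, ctsk and ctsa, but the implied 95% intervals of these differences all included 0. ctsz, at a level of 53.9, had a smaller fold than either, 1.06. The SD of the log2 fold was 0.77 over the 10 genes and 0.52 over the 9 without ctsf, beside a median implied SE of 0.57. ctsf was left out because its fold was the lowest, so a smaller SD was bound to follow. These values are a description and do not show whether the folds of the 9 differ.

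**Figure D2:**
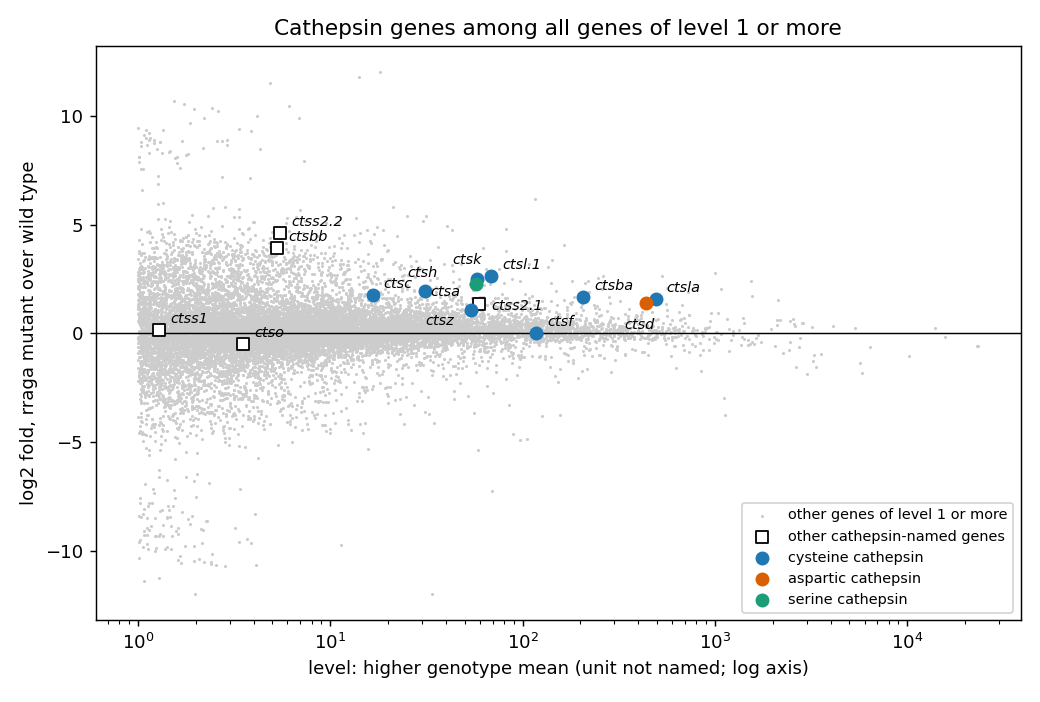
Each grey dot is a gene of level 1 or more, with its level on a log axis and its log2 fold (rraga mutant over wild type); listed cathepsins are coloured by type and other cathepsin-named genes are open squares. The 9 higher cathepsins lie at log2 folds of 1.06 to 2.63 above the bulk of genes of like level, whereas ctsf sits on the line at 0.

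As a description, each fold was placed among genes of like level. Level is the higher genotype mean, which for a gene higher in the mutant already contains the rise, so these shares are no test and support nothing. Of the 306 genes with a level within 2-fold of that of ctsla, 2.29% had a higher log2 fold, and their median was 0.08. For ctsd the share was 3.24% of 340 genes and for ctsba it was 2.12% of 709. For ctsl.1 it was 0.999%, for ctsk 1.15% and for ctsa 1.65%. ctsh had 3.14% of like genes above it, ctsc 5.27% and ctsz 8.80%. ctsf had 66.4% above it, since the median log2 fold of its 1118 like genes was 0.17. Ranked by log2 fold among the 5792 genes of level 10 or more, ctsl.1 stood at place 108, ctsk at 120 and ctsa at 158, while ctsz stood at 572 and ctsf at 3663.

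Other cathepsin genes were mostly at low levels and gave a mixed picture. Of 9 further rows whose name starts with cts, the ctslb copies ctslb_1 and ctslb_2 were listed at level 0. Both copies lie wholly within the spans of other genes on the same strand, among them zgc:174855_2 at level 1.54. How reads were divided there is uncertain. Of the 7 cts rows with a p, 4 were higher, 3 lower and none past the authors' threshold, with a median log2 fold of 0.13. At a level of 10 or more stood ctss2.1 alone, which is named for cathepsin S, a protease of antigen-presenting cells in mammals. ctss2.1 had a level of 59.3, a log2 fold of 1.33 (implied SE 0.80) and p = 0.0961 in the authors' deposited table. ctss2.2 spans ctss2.1 on the same strand and had a level of 5.50 with a log2 fold of 4.59 (p = 9.21e-04, adjusted p = 0.208) in the authors' deposited table. How reads were divided between these overlapping genes is uncertain. The pair begins 6289 bases beyond the end of ctsk.

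ctsbb, the second cathepsin B gene, had a log2 fold of 3.92 (implied SE 1.70) and p = 0.0213 in the authors' deposited table, where its level was 5.30. ctso and ctss1 had log2 folds of -0.50 and 0.13, at levels of 3.53 and 1.29 there. cts12 and ctsll were listed under level 1, with log2 folds of -9.34 (p = 0.00599) and -6.23 (p = 0.0619) and implied SE of 3.40 and 3.34, from the authors' deposited table. The implied 95% interval was -16.0 to -2.68 for cts12 and -12.8 to 0.31 for ctsll.

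Among the other proteases of the lysosome, 7 of 9 listed genes were found, and all 7 had a higher value in the mutant. Of all 25757 genes with a p, 13131 were higher. The median log2 fold of the 7 was 1.69 and none passed the authors' threshold. At an unadjusted p under 0.05, 5 were higher, against 4.43% of all genes with a p. Legumain, the asparaginyl endopeptidase that matures several cathepsins, is encoded by lgmn, which had a level of 149 and a log2 fold of 1.92 (implied SE 0.56, p = 5.88e-04, adjusted p = 0.180) in the authors' deposited table. scpep1, a serine carboxypeptidase gene of the family of ctsa, had 0.95 (p = 0.124) at a level of 35.1, and dpp7, a dipeptidyl peptidase gene, had 1.19 (p = 0.0461) at 27.9, by the authors' deposited table. Picked once its value was known, the aspartic protease gene NAPSA had 1.79 (p = 0.0295) in the authors' deposited table, where its level was 12.7, beside the 1.38 of ctsd.

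Genes of protease inhibitors were also mostly higher. Of 9 measured, 8 were higher and 1 lower, 1 rose past the authors' threshold and 8 did not pass it, with a median log2 fold of 1.19. At an unadjusted p under 0.05, 2 of the 9 were higher, against 4.43% of all genes with a p. Of the 6 with a level of 10 or more, 5 were higher, against 62.3% of all genes at that level. The median of these 6 was 1.02. Cystatins block cysteine cathepsins by filling the active-site cleft. The gene that rose, cst14b.1 (chromosome 5, 4081428 to 4091680), is named as a cystatin and carried a log2 fold of 2.56 (implied SE 0.57) at a level of 247, with adjusted p = 0.0109 in the authors' deposited table. cst14a.2 had 1.38 (p = 0.00988) at a level of 286, and cst3, cystatin C, had 0.04 (p = 0.943) at 378, by the authors' deposited table. The cst14 genes are numbered copies, of which cst14a.1 and cst14a.2 lie close together on chromosome 24. On chromosome 5, cst14b.2 lies on the opposite strand from cst14b.1. Their sequences were not compared, so whether reads were divided among the copies is not known. cst14b.1 did not have an FDR p-value from the authors' column under 0.01.

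Partners and sorting factors of cathepsins were higher in some cases and lower in others. Of 14 measured, 9 were higher and 5 lower, and none passed the authors' threshold, with a median log2 fold of 0.32. At an unadjusted p under 0.05, 3 were higher, against 4.43% of all genes with a p. psap, whose product prosaposin is cleaved by cathepsin D, had a level of 200.4 and a log2 fold of 1.22 (p = 0.0283) in the authors' deposited table. gnptg, a subunit of the enzyme that adds the mannose 6-phosphate signal, had 1.39 (p = 0.0298), and lman1, a cargo receptor of the early secretory pathway, had -1.06 (p = 0.0784), again by the authors' deposited table. The partners held in complex with cathepsin A, picked once their values were known, were neu1 at 1.57 (p = 0.0146) and glb1 at 1.098 (p = 0.205) in the authors' deposited table, beside the 2.29 of ctsa.

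**Figure D3:**
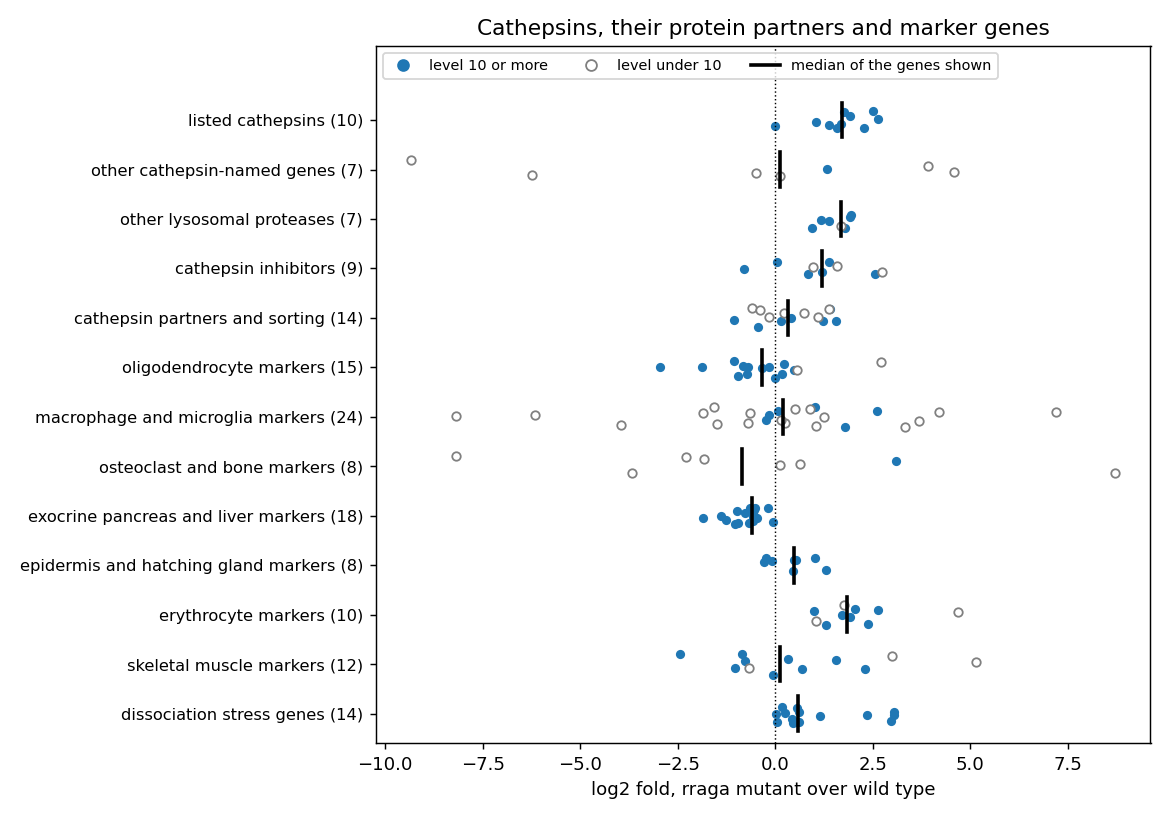
Each point is the log2 fold (rraga mutant over wild type) of a gene, by list, with the number of genes that have a p in parentheses and the list median as a bar; filled points have a level of 10 or more. The medians of the listed cathepsins (1.72), other lysosomal proteases (1.69) and erythrocyte markers (1.84) lie farthest to the right. That of macrophage and microglia markers lies at 0.21 over 24 genes, and is 0.54 for the 6 of level 10 or more.

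Macrophages, microglia and osteoclasts are rich in cathepsins, so their markers were read beside these values. Of 24 macrophage and microglia markers with a p, 14 were higher and none passed the authors' threshold, with a median log2 fold of 0.21 (0.54 for the 6 of level 10 or more). Their summed level was 392, of which apoeb alone held 232, and c1qa was listed at 0. Picked as widely used markers of these cells, mpeg1.1, csf1ra and p2ry12 had levels of 2.49, 0.581 and 0.389. Their log2 folds were 0.90, -0.64 and 0.16 in the authors' deposited table. Picked to complete the 6 of level 10 or more, coro1a and lcp1 had levels of 18.7 and 13.3. Their log2 folds were 0.08 and -0.22 there. The markers of highest level, apoeb and grn1, had values of -0.15 and 1.01 on the log2 scale by the authors' deposited table. At an unadjusted p under 0.05, 4 markers were higher and 2 lower, against 1140 and 1349 of the 25757 genes with a p. These markers were picked once their values were known. The higher ones were mfap4 at 2.60 (p = 0.00190), slc7a7 at 1.79 (p = 0.0251), marco at 3.68 (p = 0.0273) and mpeg1.2 at 4.21 (p = 0.0197), and the lower ones lgals3bpb at -3.96 (p = 0.0125) and cd74a at -8.18 (p = 0.0156), by the authors' deposited table. mfap4 and slc7a7 had levels of 27.7 and 14.2, and the other 4 had levels under 10. Of 8 osteoclast and bone markers with a p, 4 were higher and 4 lower, with a median log2 fold of -0.85. None of the 8 passed the authors' threshold, and at an unadjusted p under 0.05, 2 were higher and 2 lower. Among these 8, acp5b alone reached level 10. Its log2 fold was 3.11 (p = 0.00255, adjusted p = 0.347) at a level of 17.6, and that of the next, acp5a, was 0.13 at level 5.33 in the authors' deposited table. The part of such cells in the cathepsin values was not tested.

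In the RNA of the sorted samples, markers of oligodendrocytes were listed together with those of other tissues. Bulk RNA gives no value per cell, so the source of these transcripts is not known. Shares of the summed level add the higher genotype mean of each gene, so they mix the genotypes and describe neither sample alone. The 15 measured oligodendrocyte markers held 2.04% of the summed level, led by mbpa at 5321 and plp1b at 3005 with log2 folds of 0.23 and -1.89, and had a median of -0.35, with mpz past the threshold at -2.96 by the authors' deposited table. Exocrine pancreas and liver markers held 16.7%, led by apoa2 and apoa1b, and all 18 were lower, with a median of -0.61. None of the 18 passed the threshold, and 3 were lower at an unadjusted p under 0.05. All have a level of 10 or more, and of the 5792 genes at that level 2182 were lower, 157 of them at an unadjusted p under 0.05. Erythrocyte markers had a median of 1.84 over 10 genes, with hbbe1.1 and hbbe1.3 of highest level and hbae1.3 past the threshold at 2.65 in the authors' deposited table. The 14 genes listed for dissociation stress, led by junbb at 0.45 and fosab at 0.42, were all higher with a median of 0.59. Among them hsp70l, hsp70.3, hsp70.2 and hsp70.1 passed the threshold, with log2 folds of 2.36 to 3.06 in the authors' deposited table. The other 10 did not pass it, and none of those 10 had an unadjusted p under 0.05. Reads may be shared between close copies of heat shock or globin genes. Of 11 epidermis and hatching gland markers (icn and krt4 highest), the 8 with a p, all epidermis markers, had a median of 0.48. The 3 hatching gland genes were listed at level 0. Skeletal muscle markers (actc1b and pvalb2 highest) had a median of 0.13. The part of these differences in the cathepsin values was not tested.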

How the data were processed

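Expression was measured by RNA sequencing in 1 record per genotype, each of 2 merged replicates. Reads were placed on GRCz11, per the submitters' processing notes. For the aligner, counter, annotation release, normalization and test, the entry is: not given in the sources used here. The authors deposited, per the file headers, the maximum group mean (a normalized expression signal, called the level), a log2 fold, a signed linear fold, and p-values unadjusted, FDR adjusted and Bonferroni adjusted. The 8569 genes of level 0 have no fold or p. The table gives no count, so the depth behind each value is unknown. The direction of each fold rests on the table's title, mutant against control.

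Calls used the authors' FDR p-value under 0.05 over the whole table. The deposited FDR p-value equals the Benjamini-Hochberg adjustment over 34326 genes to within 1.28e-04. Implied standard errors, list counts and medians were computed in Python 3.11.15 with pandas 2.3.3 and scipy 1.17.1. Only the Benjamini-Hochberg adjustment and the implied standard error were tested on simulated data. The simulated p-values came from a normal test, so they cannot show whether the authors' test was normal. The cathepsins and gene lists were chosen with earlier results of these data known. Named genes are the 10 cathepsins, the other cathepsin-named genes, and of each other list those past the threshold and the 3 (markers, 2) of highest level; any other gene is marked as picked, except genes that neighbour or overlap a cathepsin, rraga, and a marker listed at 0.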

Additional observations from a re-analysis of the deposited data

How the results depend on the processing

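The calls of ctsk and ctsa depended on the strictness of the threshold. With the authors' FDR p-value under 0.01, or their Bonferroni p under 0.05, 0 of the 10 cathepsins passed. At the FDR p-value under 0.05, 2 passed as higher, against 0.132% of the 25757 genes with a p. At an unadjusted p under 0.05, 9 were higher, against 4.43% of those genes. The share of all genes called was not counted at the stricter settings, nor with adjustment over genes with a p only. The count of cathepsins stayed at 2 when a log2 fold of at least 1 was required as well. It also stayed with Benjamini-Hochberg adjustment over genes with a p only, genes of level 1 or more, or genes of level 10 or more. The smallest log2 fold called in the table was 2.17 in size, so the fold cut could remove none. Adjusting over genes with a p only could not raise an adjusted p. The other pools are set by level, which a gene can reach through the mutant alone. The unchanged count therefore supports nothing. Over genes of level 10 or more the adjusted p of ctsl.1 was 0.0662. Subtracting the median log2 fold of genes of level 10 or more, 0.15, left the direction of all 10 cathepsins as it was, and gave a median of 1.57 in place of 1.72. No cathepsin fold lay between 0 and 0.15, so no direction could turn, and the median had to fall by that amount. All 10 have a level of 10 or more, so a filter at that level removes none; since the level is the higher genotype mean, this says nothing about stability. Among the other lists, restricted after the data were seen to genes of level 10 or more, the median turned from -0.85 to 3.11 for osteoclast and bone markers, where 1 gene remained, and from 0.13 to -0.06 for skeletal muscle. It was 1.33 in place of 0.13 for the other cathepsin-named genes, again with 1 gene. No paired analysis was possible because the table holds no value per replicate, and for the same reason no replicate was left out. The unknown depth, the unnamed test and the merged replicates limit what any adjusted p here can show.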
